A study of Mus musculus with 6 samples.

Results

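The 8 genes described here, Cd36, Fabp4, Plin2, Angptl4, Cpt1a, Acadvl, Hadha and Pdk4, are fatty acid metabolism genes known as targets of PPAR-RXR heterodimers. They were taken from a list of names, not by measured values, although the list was chosen with earlier results of these data known. They are 8 of 21887 protein-coding genes of GRCm38.p6, the assembly of mm10. Each was followed in 4 peak lists over its annotated body and 50 kb on both sides, a stretch called its window below. All cells were OG2X129 mouse embryonic fibroblasts in chemical reprogramming. CUT&Tag profiled the histone mark H3K27ac, typical of active regulatory DNA, in cells given CD (2 samples, 1 common list) and in cells given DMSO (2 samples, 1 common list). The series title names CD3254, a synthetic RXR agonist. Flag-tagged Rxra was mapped with a Flag antibody in cells that overexpressed it (2 samples, 1 list each). Whether these cells also received CD or DMSO, the day of sampling and the independence of the replicates are not stated in the labels.

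PPARs are nuclear receptors that sense fatty acids and bind DNA as heterodimers with RXR, on direct repeats of a half-site separated by 1 base. The PPAR-RXR heterodimer is permissive, which means that a ligand of RXR alone can activate it. Its known targets cover the path of a fatty acid through the cell, from uptake over storage to oxidation in mitochondria. They are best known from liver, muscle, adipose tissue and macrophages rather than from fibroblasts.

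On chromosomes 1 to 19, X and Y, the lists held 28243 and 45999 Flag-Rxra peaks, 104437 H3K27ac regions after CD and 75482 after DMSO. They hold no read counts, so depth is unknown. No control list was used here, and whether each called peak is a place bound by Rxra was not tested. The H3K27ac lists stop at a −log10 q of 1.00, and their medians were only 1.39 after CD and 1.5 after DMSO. At these genes the strongest region reached 3.97 after CD and 3.63 after DMSO. A −log10 q of 2 was reached by 11 of their 86 regions after CD, against 13.8% of the list. After DMSO it was reached by 12 of their 58 regions, against 18.3% of the list. As a check of the labelled cell type, an H3K27ac region lay within 1 kb of a gene end at 2 of 8 fibroblast markers after CD and at 3 of 8 after DMSO. Of all protein-coding genes 38.3% had one after CD and 35.8% after DMSO. Col1a1, Col1a2, Thy1, Postn and Prrx1 had none in either list. Of the adipocyte markers 4 of 7 had one after CD and 3 of 7 after DMSO, of the macrophage markers 1 of 6 and 0 of 6, of the endothelial markers 2 of 6 and 3 of 6, and of the hepatocyte markers 1 of 5 and 1 of 5. H3K27ac regions in the windows of the fibroblast markers summed to 26259 bases after CD and 25780 after DMSO, those of the adipocyte markers to 29209 and 24582, those of the macrophage markers to 18233 and 9635, those of the endothelial markers to 24890 and 15785, and those of the hepatocyte markers to 9667 and 7551. The marker lists differ in number of genes, so these sums are not per gene, and the H3K27ac counts did not single out fibroblasts. Flag-Rxra peaks overlapping between both replicates lay within 1 kb of a gene end at 5 of 8 fibroblast markers. They did so at 0 of 7 adipocyte, 1 of 6 macrophage, 1 of 6 endothelial and 0 of 5 hepatocyte markers, against 32.6% of all genes. The part of other cells in the results below was not tested.

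The promoter windows of 5 of the genes are shown because a Flag-Rxra peak of both replicates reached into those of Pdk4, Cpt1a, Plin2 and Acadvl, while that of Cd36 met no peak. The sequences run 5′ to 3′ on the strand of the gene, from 250 bases before the annotated start to 50 after it, and come from RefSeq (GRCm38.p6). Capitals mark the nuclear receptor half-site AGGTCA or its reverse complement TGACCT.
Pdk4: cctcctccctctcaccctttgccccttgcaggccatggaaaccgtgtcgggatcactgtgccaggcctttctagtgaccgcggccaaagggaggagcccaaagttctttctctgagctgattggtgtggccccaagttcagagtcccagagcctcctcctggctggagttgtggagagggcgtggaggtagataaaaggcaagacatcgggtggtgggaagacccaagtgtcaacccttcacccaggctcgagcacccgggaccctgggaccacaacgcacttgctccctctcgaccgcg
Cpt1a: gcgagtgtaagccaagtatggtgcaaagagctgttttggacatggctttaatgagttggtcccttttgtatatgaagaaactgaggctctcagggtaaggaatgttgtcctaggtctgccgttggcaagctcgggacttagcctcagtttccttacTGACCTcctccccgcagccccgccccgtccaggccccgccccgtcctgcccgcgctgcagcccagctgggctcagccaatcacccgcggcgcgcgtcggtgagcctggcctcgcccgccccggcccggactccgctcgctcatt
Plin2: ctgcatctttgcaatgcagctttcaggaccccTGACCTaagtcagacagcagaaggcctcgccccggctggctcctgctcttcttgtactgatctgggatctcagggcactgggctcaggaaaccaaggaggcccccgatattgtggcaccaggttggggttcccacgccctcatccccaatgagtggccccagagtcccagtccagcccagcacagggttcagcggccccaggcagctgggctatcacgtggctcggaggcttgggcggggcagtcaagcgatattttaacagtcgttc
Acadvl: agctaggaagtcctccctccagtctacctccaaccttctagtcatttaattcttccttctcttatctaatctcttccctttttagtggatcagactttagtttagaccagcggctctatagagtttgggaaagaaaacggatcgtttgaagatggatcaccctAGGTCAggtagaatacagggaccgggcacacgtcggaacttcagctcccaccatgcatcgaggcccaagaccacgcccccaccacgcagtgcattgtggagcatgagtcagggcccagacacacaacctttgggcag
Cd36: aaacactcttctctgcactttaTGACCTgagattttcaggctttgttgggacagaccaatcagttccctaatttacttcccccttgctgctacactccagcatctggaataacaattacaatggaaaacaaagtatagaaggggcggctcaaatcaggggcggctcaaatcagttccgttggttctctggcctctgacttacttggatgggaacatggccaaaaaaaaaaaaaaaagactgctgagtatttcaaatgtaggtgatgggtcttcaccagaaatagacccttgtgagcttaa

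The windows lie at chr6:5496229-5496528 (minus strand, Pdk4), chr19:3323051-3323350 (plus strand, Cpt1a), chr4:86670010-86670309 (minus strand, Plin2), chr11:70015379-70015678 (minus strand, Acadvl) and chr5:17835847-17836146 (minus strand, Cd36). Promoter windows were given for 6 of the 8 genes, and that of Cd36 lies inside its annotated gene, which extends further upstream. The Pdk4 window lay wholly inside its Flag-Rxra peak in both replicates and held no half-site. In the Cpt1a window the half-site begins 94 bases before the start, inside the replicate 2 peak but outside that of replicate 1. The half-sites of Plin2 (218 bases before the start) and Acadvl (87 bases before) lay outside the peaks of both replicates. The direct repeat with 1 base between, AGGTCANAGGTCA on either strand with up to 2 mismatches in the 12 repeat bases, matched in the windows of Plin2 (aggtcaggggtcc, which overlaps its half-site) and Cd36 (aagtcagaggcca). Half-sites were present in 14.7% and such repeats in 3.32% of 21263 promoter windows of protein-coding genes. A match is a run of letters, not a binding site, and the windows are only 300 bases long.

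Flag-Rxra peaks at the same place in both replicates (overlap of at least 1 bp) lay within 1 kb of an annotated end at 5 of the 8 genes, Plin2, Angptl4, Cpt1a, Acadvl and Pdk4, against 32.6% of all protein-coding genes. With either replicate alone the count was 6 of 8, with Hadha added, against 41.7% of genes in replicate 1 and 42.1% in replicate 2. Fabp4 and Cd36 had no peak near an end in either replicate. All 8 genes had a shared peak somewhere in their window, as had 68.9% of all genes. Among peaks that reach a −log10 q of 20 in both replicates, the windows of Fabp4, Cd36 and Hadha held none, which leaves 5 of 8 genes against 59.5% of all genes. The genes were chosen with results of these data known, so these counts carry no test.

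The windows together held 30 shared peaks, of which 5 lay near an end of the gene itself, 5 elsewhere inside it and 20 outside. In 16 of the 30, the summit lay inside or nearest to another gene. Replicate 1 had 42 peaks in the windows, of which 71.4% overlapped a replicate 2 peak, against 62.4% over its whole list. Of the 62 replicate 2 peaks, 56.5% overlapped a replicate 1 peak, against 40.5% over its list. Per 100 kb of window the genes had a median of 2.42 shared peaks, and all protein-coding genes had 0.96. The range ran from 0.482 at Cd36 to 7.6 at Acadvl, which lies among closely spaced genes. The shared peak nearest to the 50 kb limit on the inside lay 47299 bp from Angptl4, and the nearest outside lay 51030 bp from Plin2, with folds of 11.1 and 12.5 in replicates 1 and 2.

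**Figure D1:**
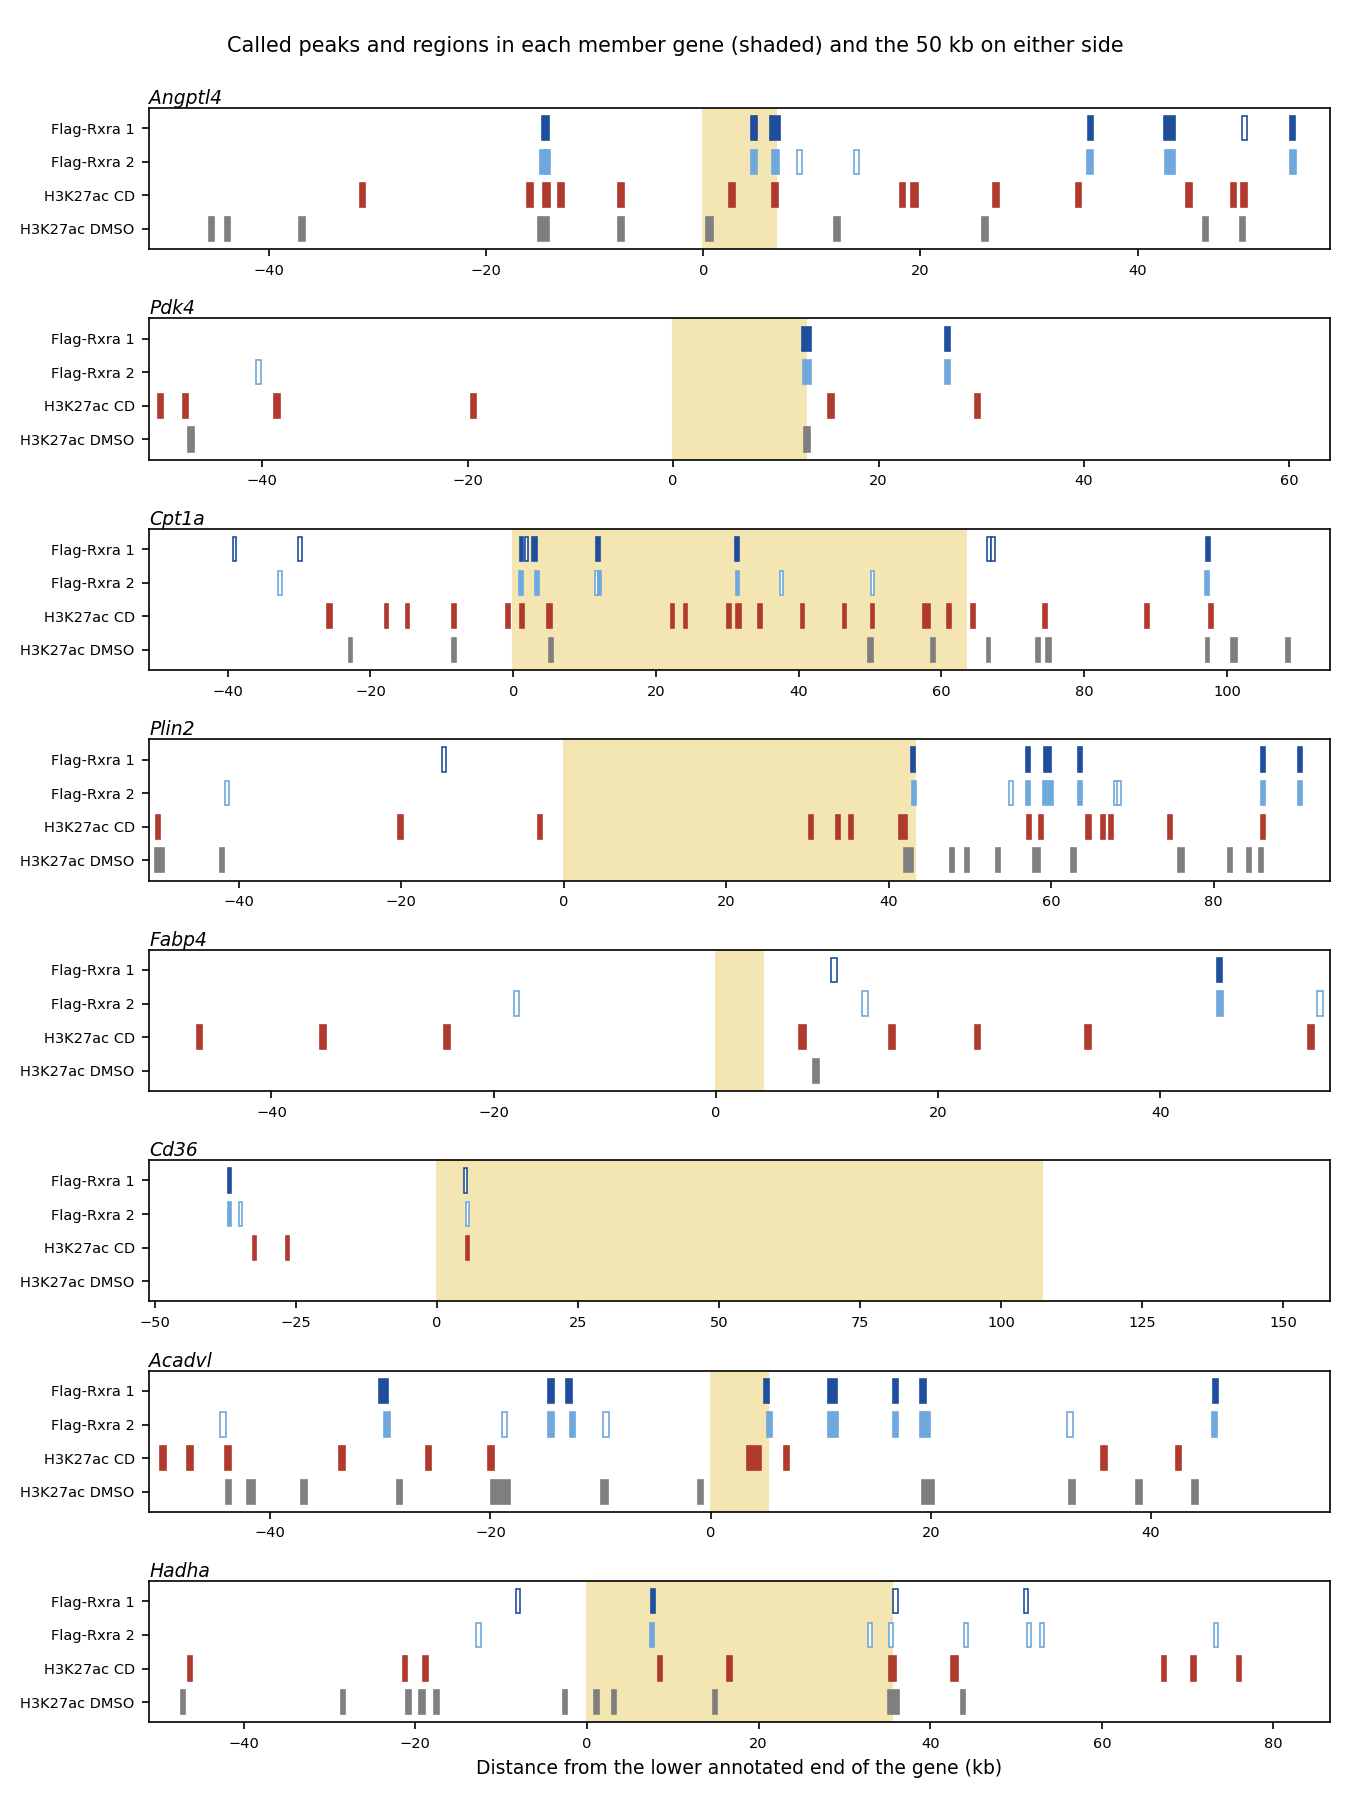
Called peaks and regions at the 8 genes, each panel showing the gene (shaded) and 50 kb on either side, with the distance in kb from the end with the lower coordinate on the x axis. Rows are the Flag-Rxra replicates (filled where both overlap, open where only 1 list has the peak), then H3K27ac after CD and after DMSO; marks under 0.5 kb are drawn 0.5 kb wide. Acadvl, Angptl4 and Plin2 have 8, 6 and 6 shared peaks, while Fabp4, Cd36 and Hadha have 1 each.

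Cd36 and Fabp4 had 1 shared peak each, as had Hadha. Cd36, a membrane protein that takes up long-chain fatty acids, spans chr5:17781690-17888959. Its only shared peak lay 36960 bp below the gene, in the direction of Sema3c, with folds of 7.98 in replicate 1 and 21.6 in replicate 2. Inside Cd36, about 5 kb from its lower end, each replicate had 1 peak (folds of 8.53 and 7.71), but the peaks did not overlap. Fabp4, a cytosolic fatty acid carrier that marks adipocytes and some macrophages, lies at chr3:10204342-10208616. Its only shared peak lay inside the neighbouring Fabp12, 40890 bp from Fabp4, with folds of 7.53 in replicate 1 and 20 in replicate 2. Both remote peaks were below the median fold of 9.03 in replicate 1 but high in replicate 2, above 92.6% (Cd36) and 89.9% (Fabp4) of its peaks.

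Plin2, which coats lipid droplets, had 6 shared peaks. The one at its start (chr4:86669655-86670108) had folds of 6.12 and 8.25, which exceed 7.27% and 8.85% of the folds of 6406 gene-end shared peaks in replicates 1 and 2. The other 5 all lay on the upstream side, with summits 13673 to 47272 bp from the gene. Replicate 1 folds there lay between 5.67 and 8.72, all below the list's median fold, and replicate 2 folds between 4.53 and 11.7. Replicate 1 −log10 q of these peaks lay between 12.2 and 47, around the list median of 21.1. The map of called peaks shows them spread along the upstream side.

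Angptl4, a secreted inhibitor of lipoprotein lipase, spans chr17:33774900-33781575 and had 6 shared peaks. The peak at its upper end (chr17:33781077-33781941) had folds of 4.23 and 7.46, above only 0.921% and 5.87% of gene-end shared peaks. Its −log10 q was 36.4 and 63, above the list medians of 21.1 and 20.7. A second peak lay inside the gene, 1986 bp from the upper end (chr17:33779313-33779790), with folds of 10.1 and 9.14. Its −log10 q was 185 and 88.2, higher than at the gene end in both replicates. The PPAR response element described for this gene is intronic. Exons and introns were not annotated here, so whether the inner peak covers that element was not tested. Peaks of the window with higher folds lay at other genes. The one at an end of Rab11b, a GTPase of recycling endosomes, had folds of 18.1 and 19.2, and one inside Ndufa7, a subunit of respiratory complex I, had 14.2 and 28.8. Their −log10 q was 203 and 120 at Rab11b and 101 and 159 at Ndufa7.

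Cpt1a, the carnitine palmitoyltransferase that commits long-chain fatty acids to mitochondrial import, had 5 shared peaks, 4 of them within the gene. The peak at its annotated start (chr19:3323223-3323667) had folds of 4.92 and 10.8, above 2.25% and 22.9% of gene-end shared peaks. Its −log10 q was 32.8 and 87, above the list medians of 21.1 and 20.7. Its summit lay 76 bases after the start in replicate 1 and 77 in replicate 2. Farther in, peaks with summits 2180, 10678 and 30486 bases after the start had folds of 7.42, 6.18 and 10.8 in replicate 1 and of 13.1, 16.0 and 22.5 in replicate 2. The innermost (chr19:3353452-3353954) had the highest fold of the gene in both replicates. By −log10 q the peak 2180 bases after the start was first, with 72.5 and 118 against 33.9 and 67.1 for the innermost.

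The enzymes of mitochondrial β-oxidation differed from one another. Acadvl, the dehydrogenase that starts the oxidation of very-long-chain acyl-CoA, had a shared peak with its replicate 1 summit 2 bases from the annotated start (chr11:70015025-70015508), with folds of 10.1 and 17.7. It exceeded 41.1% and 64.9% of gene-end shared peaks. The 7 other shared peaks of this window lay in or nearest to other genes, among them Ctdnep1, Phf23, Dlg4 and Asgr1. Hadha, the α subunit of the mitochondrial trifunctional protein, faces Hadhb, which encodes the β subunit. In replicate 1 a peak with a fold of 7.82 (chr5:30155092-30155646) had its summit between them, 210 bp from Hadha and 63 bp from Hadhb. The peak itself reached into Hadhb. In replicate 2 a peak with a fold of 9.91 lay 300 bases inside Hadha (chr5:30154598-30154721). They did not overlap and are not counted as shared. The only shared peak of Hadha lay inside the gene with folds of 12.1 and 10.8, and the replicates overlapped there by only 42 bp.

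Pdk4, a kinase that switches off pyruvate dehydrogenase and so spares glucose when fatty acids are burned, had the strongest gene-end peak of the 8 in replicate 1 and in replicate 2. This peak (chr6:5495935-5496820) had folds of 16.3 and 18.3, above 87.8% and 68.2% of gene-end shared peaks, with its summit 294 and 263 bases upstream of the start. A second shared peak 13657 bp upstream (chr6:5509794-5510119) had higher folds still, 23.4 and 20.8, above 99.2% and 91.3% of all peaks of those lists. Its −log10 q was lower, 80.4 and 58.1 against 139 and 144 for the gene-end peak. No other protein-coding gene end lay nearer to the upstream peak than that of Pdk4.

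At each of the 5 genes with a shared gene-end peak, the strongest shared peak of the window by fold lay away from the gene's ends, in both replicates. Of the 5803 protein-coding genes with shared peaks both near an end and elsewhere in the window, 50.6% were like this in both replicates, 63.7% in replicate 1 and 65.4% in replicate 2. The stronger peak lay inside the gene itself at Cpt1a and nearest to the gene at Pdk4. By −log10 q the order at Pdk4 was the reverse, with 139 and 144 at the gene end and 80.4 and 58.1 upstream. The share of all genes by −log10 q was not computed. At Plin2 the strongest replicate 2 peak was nearest to the gene, and the strongest of replicate 1 was nearest to Dennd4c. At Angptl4 and Acadvl the strongest peak lay in or nearest to a neighbouring gene. Each of the 5 genes had 1 gene-end shared peak, in windows that held from 2 (Pdk4) to 8 (Acadvl) shared peaks. The more peaks lie elsewhere, the more easily 1 of them has the highest fold. Windows held a median of 3.5 shared peaks over the 8 genes and of 1 over all genes. The 5803 genes were not matched for number of peaks, so the shares above do not allow for this. The likeness of the 5 genes in this respect is a description of 5 windows.

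**Figure D2:**
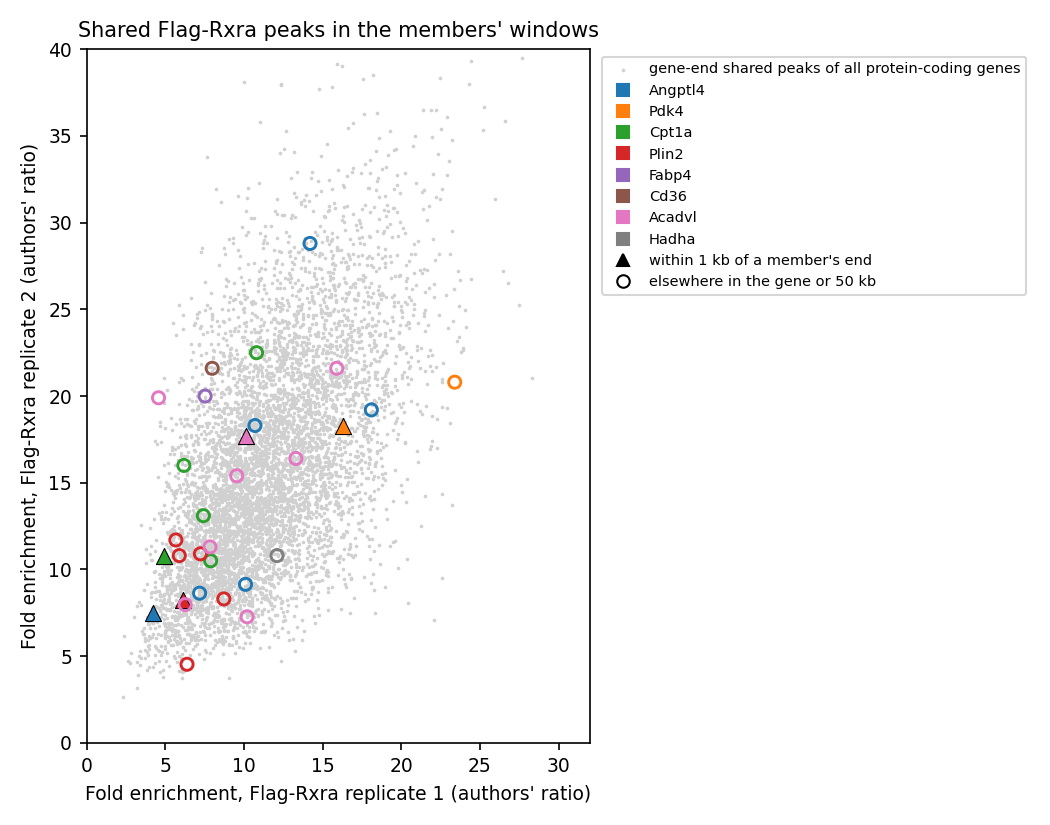
Fold enrichment of the 30 shared Flag-Rxra peaks in replicate 1 (x axis) and replicate 2 (y axis), coloured by gene. Triangles are peaks within 1 kb of an end of the gene, circles those elsewhere in its window, and grey points the 6406 gene-end shared peaks of all protein-coding genes, of which 8 lie outside the axes. The triangles of Angptl4, Plin2 and Cpt1a sit at the low edge of the grey points in replicate 1, that of Acadvl near their middle and that of Pdk4 high.

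H3K27ac regions covered few of these Flag-Rxra peaks. Of the 30 shared peaks, 20 (66.7%) lay in no H3K27ac region, against 54.1% of all 17623 shared peaks, and 2 (6.67%) lay in regions of both conditions, against 15.4%. These 2 were the peak at Rab11b and a peak 42767 bp upstream of Plin2. Another 4 lay in a region after CD only, namely the gene-end peaks of Angptl4 (chr17:33781251-33781402, −log10 q of 2.14) and Cpt1a (chr19:3323276-3323540, 1.49), the peak deep in Cpt1a (1.59) and the peak 13673 bp above Plin2 (1.95). The last 4 lay in a region after DMSO only. They were the gene-end peaks of Pdk4 (chr6:5496141-5496413, −log10 q of 1.32) and Plin2 (1.45), one inside Dlg4 beyond Acadvl (3.15) and one beyond Cpt1a towards Gal (3.63). The gene-end peak of Acadvl lay in none. Most of these q values are close to the lower limit of the lists.

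An H3K27ac region lay within 1 kb of an end at 4 of the 8 genes after CD, namely Angptl4, Cpt1a, Acadvl and Hadha, against 38.3% of all genes. After DMSO it did so at 5, namely Plin2, Angptl4, Acadvl, Hadha and Pdk4, against 35.8% of genes. Angptl4, Acadvl and Hadha were on both counts (21.2% of all genes), but only Hadha at the same place. The CD region at Angptl4 lay at the upper end and the DMSO region (chr17:33775113-33775777) at the lower end. At Acadvl the CD region lay inside the gene (chr11:70013531-70014730) and the DMSO region beyond the lower end, in Dvl2. Regions across the start of Hadha, at chr5:30154620-30155491 after CD and chr5:30154452-30155751 after DMSO, had −log10 q of 2.11 and 2.02 and overlapped one another. Fabp4 and Cd36 had a region near an end in neither condition.

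**Figure D3:**
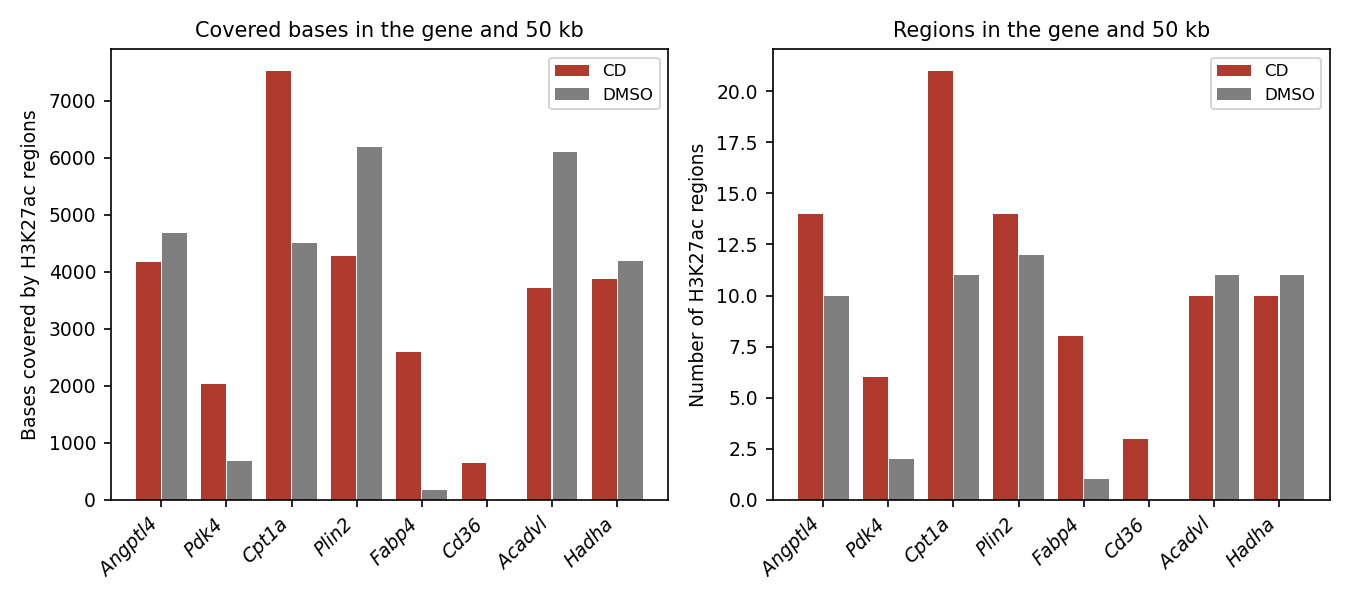
Bases covered by H3K27ac regions (left) and number of regions (right) in each gene and 50 kb on either side, after CD (red) and after DMSO (grey); each bar is 1 list, with no replicate error. The CD bars are higher for Pdk4, Cpt1a, Fabp4 and Cd36 in both panels and for Angptl4 and Plin2 in the right panel only, and Cd36 has no region after DMSO.

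The next comparison asked whether H3K27ac at these genes differed between CD and DMSO. By covered bases the genes split evenly: 4 had more bases covered by H3K27ac regions after CD (59.5% of all genes) and 4 had more after DMSO (31.3%), while none was equal (9.27%). With the CD list shortened to the covered length of the DMSO list, the count was again 4 of 8, against 46.3% of all genes. By number of regions 6 of the 8 had more after CD (64.9% of all genes), the exceptions being Acadvl and Hadha, which had more after DMSO (17.5%). Summed over the windows, 86 regions covered 28850 bases after CD and 58 regions covered 26556 bases after DMSO. The median difference, CD minus DMSO, was 164 bases, against 282 over all protein-coding genes. Each condition had 1 list, so no difference could be tested, and the CD list is longer over the whole genome.

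The genes with more covered bases after CD were Cpt1a, Fabp4, Pdk4 and Cd36. Cpt1a had the largest excess, with 7530 bases in 21 regions after CD and 4516 bases in 11 regions after DMSO. Within the gene body the values were 5122 and 1616 bases. Its difference of 3014 bases was above that of 94.3% of all genes, but counting only regions that reach a −log10 q of 2 it had 1403 bases after CD and 1961 after DMSO. Fabp4 had 2589 bases in 8 regions after CD and 177 bases in 1 region after DMSO, at percentile 89.9 of all genes. All of these regions lay outside the gene, the nearest being chr3:10211873-10212495 after CD and chr3:10213117-10213293 after DMSO. Pdk4 had 2034 bases in 6 regions after CD and 691 bases in 2 regions after DMSO. Its strongest region was called after CD, upstream of the start (chr6:5498459-5498968, −log10 q of 2.44), while the region at its start was called after DMSO. Cd36 had 651 bases in 3 regions after CD and no region after DMSO.

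The other 4 genes had more covered bases after DMSO. Acadvl had 3716 bases in 10 regions after CD and 6110 bases in 11 regions after DMSO, a difference at percentile 3.57 of all genes. Within 2.5 kb of its ends the order was opposite, with 1339 bases after CD and 215 after DMSO, so the excess after DMSO lay among its neighbours. Plin2 had 4284 bases in 14 regions after CD and 6186 bases in 12 regions after DMSO, at percentile 5.86. Regions just inside its start overlapped between the conditions (chr4:86668209-86669122 after CD, −log10 q of 2.64, and chr4:86668757-86669929 after DMSO, 1.45). The CD region ends more than 1 kb from the annotated gene end, so the count of genes near an end leaves it out. Counting only regions that reach a −log10 q of 2, Plin2 had 914 bases after CD and 515 after DMSO. Angptl4 had 4174 bases in 14 regions after CD and 4680 bases in 10 regions after DMSO. Hadha had 3872 bases in 10 regions after CD and 4196 bases in 11 regions after DMSO. These were the smallest differences of the 8 genes. Of the 86 CD regions in the 8 windows 13 (15.1%) overlapped a DMSO region, against 13.9% of the CD list, and 13 of the 58 DMSO regions (22.4%) overlapped a CD region, against 19.2% of that list.

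Of 44 other PPAR-related genes of lipid metabolism, 21 had a shared Flag-Rxra peak near an end (32.6% of all genes). Among those with the best mean ranks of fold were Etfdh, which passes electrons from β-oxidation to the respiratory chain (folds of 19.6 and 30.9 in replicates 1 and 2), Acaa1a, a peroxisomal thiolase (17.7 and 33.4), and Fads2, a fatty acid desaturase (18.5 and 28.6). These 3 gene-end peaks had higher folds than that of Pdk4, the highest among the 8. An H3K27ac region lay near an end at 24 of the 44 after CD (38.3% of all genes) and at 18 after DMSO (35.8%). More bases were covered after CD at 25 (59.5% of all genes), more after DMSO at 17 (31.3%), and 2 were equal (9.27%). By number of regions 20 had more after CD (64.9%) and 14 more after DMSO (17.5%). Hadhb had no shared peak near an end.

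Genes were also compared by 4 yes or no calls over the 4 lists: a shared Flag-Rxra peak near an end, one elsewhere in the window, a CD region near an end and a DMSO region near an end. Angptl4 and Acadvl had all 4, like 11.0% of protein-coding genes, among them Acadm and Slc25a20. Pdk4 and Plin2 lacked the CD region (5.99% of genes, among them Gpd1), and Cpt1a lacked the DMSO region (4.91%, among them Cpt2, Acaa1a and Etfdh). Hadha lacked the gene-end Flag-Rxra peak (5.65%, among them Hadhb, Aqp7 and Pex11a). Fabp4 and Cd36 had only a shared peak elsewhere, the pattern of 16.6% of genes, among them Cpt1b, Lpl and Plin4.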

How the data were processed

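The deposited files used were 4 peak lists, 1 for both replicates of each H3K27ac condition, per the labels, and 1 for each Flag-Rxra replicate. Per the submitters' processing notes, the build was mm10 and MACS2 2.1.2, Bowtie2 2.2.5, deepTools 3.4.3 and fastp 0.20.1 were among the tools. The handling of replicates and of any control at that step is not stated there. The fold of a peak is the authors' ratio over their caller's background. The −log10 q is the authors' deposited value. The deposited score column is the −log10 q in other units and was not used. Fold, −log10 q and the deposited summit were read only within each list.

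The computations used Python 3.11.15, numpy 2.4.6, pandas 2.3.3 and matplotlib 3.10.9, and the interval functions were tested on simulated data. Only chromosomes 1 to 19, X and Y were kept. Overlap meant at least 1 bp. Shared peaks were replicate 1 peaks overlapping a replicate 2 peak, with replicate 1 coordinates and the fold of the replicate 2 peak with most overlap. A peak or region was near a gene end if it overlapped the 1 kb on either side of an annotated RefSeq gene end. Percentiles of covered bases count ties at their middle. The rule for the gene list names 10 genes, of which the 8 given are analysed here. The genes, the pathway list and the marker lists were chosen with earlier results of these data known. Named genes were the 8, neighbours where their peaks lay, the 4 pathway genes with the best mean rank of fold and up to 3 per pattern, of which 1 gene is not reported here. The design used no test, since each H3K27ac condition had 1 list. Alternatives for overlap, threshold, window, replicate and covered length are given at the end.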

Additional observations from a re-analysis of the deposited data

How the results depend on the processing

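The number of genes with a gene-end Flag-Rxra peak stayed between 4 and 6 under all 7 alternatives run. It was 4 with an overlap of 50% of both peaks (without Acadvl, against 20.2% of all genes), 4 with −log10 q of 20 or more (without Plin2, 24.2%), 4 of the 6 genes with an annotated start (33.2%), 5 with windows of 2.5 kb (37%) and 6 without replicate 1 (42.1%) or 2 (41.7%). The number of shared peaks in the windows, 30, was 19 with an overlap of 50%, ranged from 42 to 62 with either replicate left out, and was 11 with windows of 10 kb and 46 with windows of 100 kb. None of the 30 lay in H3K27ac regions of −log10 q of 5 or more in both lists. When H3K27ac regions had to reach a −log10 q of 2, 2 genes after CD (6.65% of all genes) and 1 after DMSO (8.84%) had one near an end. More covered bases after CD were found at 3 of the 8 genes at that limit (34.8% of all genes), 5 with windows of 10 kb (50.5%), and 4 with covered lengths matched (46.3%) or bases weighted by fold (60.5%). The difference, CD minus DMSO, changed sign at Cpt1a (−558 bases) and Plin2 (399 bases) at the limit of 2, where fewer regions remain, and at Acadvl (527 bases) with windows of 10 kb, which leave out most neighbours. With covered lengths matched, no sign changed. No paired analysis was possible because no result came from a test and both replicates of an H3K27ac condition share 1 list.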

Other observations

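Only promoter windows of 300 bases were searched for motifs, not the peaks themselves. Among these windows, the half-site AGGTCA was no commoner in those that a shared Flag-Rxra peak overlapped by at least 1 bp. It was found in 11.1% of the 6174 promoter windows that a shared peak overlapped and in 16.2% of the 15089 others, and the direct repeat with 1 base between in 2.79% and 3.53%. The median GC content of these windows was 63.0% with a shared peak and 53.0% without, and its part in the difference was not tested. Among the 8 genes, half-sites lay in the windows of Cpt1a, Plin2, Acadvl and Cd36, with GC contents of 62.3%, 60.7%, 50.7% and 43.0%. The windows of Pdk4 (60.7%) and Hadha (58.7%) held none, although that of Pdk4 lay wholly in the strongest gene-end peak of the 8.

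Of the pathway genes, 2 were chosen after their values were seen. Fabp5, a fatty acid carrier on the same chromosome as Fabp4, had a shared Flag-Rxra peak near an end with folds of 15.5 in replicate 1 and 11.9 in replicate 2. Acadl, a dehydrogenase that acts beside Acadvl, had 1976 covered H3K27ac bases in its window after CD and 6408 after DMSO.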
